A study of Homo sapiens with 18 samples.

Results

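The 321 regions described here are stretches of chromatin in T47D cells whose accessibility rose about equally with a low and a high dose of a progestin, at an early and at a late time. They make up 0.242% of the 132604 regions in the count table. They were chosen on measured values: the level of a region was its log2 CPM (counts scaled to a common library size, after TMM, prior count 2), averaged over the libraries of a group. A region was kept where 0.1 nM minus vehicle and 10 nM minus vehicle were both at least 1, a 2-fold rise, and the doses differed by under 0.5, at 6 h and also at 18 h. These differences and the calls made from them are therefore given as a description, with no test, and they support nothing further.

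T47D is an established human breast carcinoma line that carries the progesterone receptor. Per the series' design text, the cells were first starved in phenol red-free medium with little charcoal-stripped serum. They then received 0.1 nM R5020, 10 nM R5020 or DMSO as vehicle, for 6 h or 18 h. R5020 (promegestone) is a synthetic progestin. Each of the 6 groups had 3 libraries, numbered 1 to 3, and nothing in the labels says whether these came from separate cultures, so p-values measure nothing beyond how these libraries spread, which may be technical variation. All groups, vehicle included, share the cell line, the serum withdrawal and the stripped medium, so the findings concern starved cells of 1 line.

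As background, the progesterone receptor is a transcription factor that lies inactive until a progestin binds it. The bound receptor moves onto DNA as a dimer, often at enhancers where pioneer factors have already loosened the nucleosomes, and recruits coactivators and remodelling complexes that open the chromatin further. Omni-ATAC-seq reads this out: the Tn5 transposase inserts adapters where DNA is exposed, so the read count of a region follows its accessibility.

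Regions are named by chromosome, start and end in build hg19, as the table writes them, and it does not state whether starts count from 0 or 1. Which genes, exons or introns they lie in, and their sequences, were not analysed here, because the reference at hand is of another build. Libraries held 8756311 to 39984217 counts in regions. The 5000 strongest regions took 31.0% to 41.7% of a library's counts. The library farthest from its group mean was replicate 1 of 10 nM at 18 h, with a root-mean-square deviation of 0.664 on the log2 scale, followed by replicate 1 of vehicle at 6 h, with 0.557. Without both libraries the rule found 254 regions, and 65.7% of the 321 were among them.

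The equal-rise regions were weakly open before treatment and moderately open after it. Their median level was 1.41 CPM over the 6 vehicle libraries and 4.78 CPM over the 12 treated libraries. The median rise at 6 h was 1.59 (log2) with 0.1 nM and 1.71 with 10 nM, which is 3.0-fold and 3.26-fold. The 18 h medians were 1.56 and 1.57, or 2.94-fold and 2.98-fold. Over all regions the same 4 medians were -0.01, 0.03, -0.01 and -0.03. As a share of all counts, the 321 regions held 0.0903% ± 0.0134 with vehicle, 0.304% ± 0.0228 with 0.1 nM and 0.332% ± 0.0204 with 10 nM at 6 h (SD, n = 3). By 18 h these shares were 0.0974% ± 0.0145, 0.329% ± 0.0261 and 0.344% ± 0.0251.

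**Figure D1:**
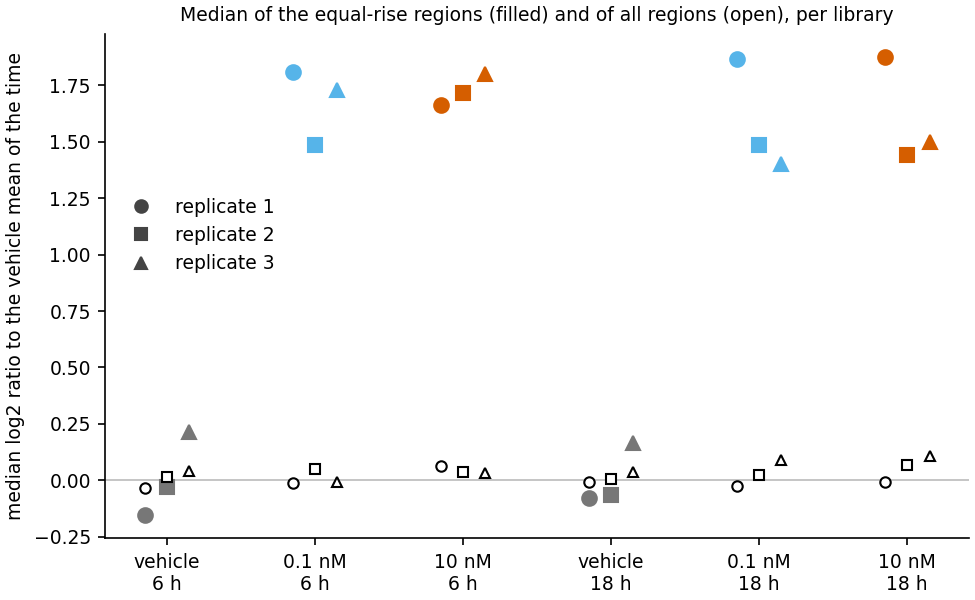
Median log2 ratio of each library to the vehicle mean of its time (y axis), over the 321 equal-rise regions (filled) and over all regions (open), by group (x axis), with a symbol for each replicate number. The treated libraries lie between 1.40 and 1.88 for the equal-rise regions, the vehicle libraries between -0.15 and 0.21, and the medians of all regions between -0.03 and 0.11.

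Read by library, the 6 h libraries of 0.1 nM had median ratios to vehicle of 1.81, 1.49 and 1.73, and those of 10 nM 1.66, 1.71 and 1.80. The ranges of the doses overlapped. The 18 h libraries had 1.87, 1.49 and 1.40 at the low dose and 1.88, 1.44 and 1.5 at the high dose. In both 18 h groups replicate 1 was the high library, and it was also the deepest of its group, with 30593974 and 39984217 counts. It held 39.5% and 37.3% of its counts in the 5000 strongest regions, more than the other libraries of its group. The part of depth and of that share in the higher ratio was not tested.

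How strongly the regions rose differed from place to place. The smallest of a region's 4 rises was under 1.5 in 214 of the 321, at least 2 (4-fold) in 38 and at least 3 in 2. Every treated library lay above every vehicle library of its time, with both doses at both times, in 274 of the 321. Of all regions tested, 1.87% met that condition. In 2 of the 321, no comparison with vehicle was free of overlap.

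All 321 passed the count filter of the edgeR fit. At an adjusted p under 0.05 (edgeR quasi-likelihood test, Benjamini-Hochberg over 132304 regions), 216 were called higher with 0.1 nM at 6 h, where 0.949% of all regions were. With 10 nM at 6 h it was 284, beside 16.7% of all regions. At 18 h the counts were 237 with 0.1 nM, beside 1.74%, and 297 with 10 nM, beside 12.8%. A total of 200 were called in all 4 comparisons, beside 0.546% of all regions. This fell to 129 without replicate 2 of vehicle at 6 h. The rule fixed the direction of these calls, so nothing is read from the counts. The 200 are 62.3% of the equal-rise regions and 27.7% of the 722 regions called higher in all 4.

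A wider frame is the set of 1214 regions that rose at least 2-fold in all 4 comparisons, of which the equal-rise regions were 26.4%. In 508 of the 1214 regions, 10 nM stood above 0.1 nM by at least 0.5 at both times. In 39, the low dose stood above the high dose by that much at both times. A further 344 were within 0.5 at 1 of the times and not at the other, and 2 changed order between the times.

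The region with the largest smallest rise was on chromosome 8 from 124417554 to 124418344, 790 bp wide. At 6 h it stood at 1.13, 1.99 and 2.84 CPM in the vehicle libraries, 29.2, 24.3 and 30.0 CPM with 0.1 nM, and 26.0, 24.5 and 24.9 CPM with 10 nM. The 18 h libraries read 1.82, 2.00 and 3.66 CPM with vehicle, 34.4, 23.4 and 29.1 CPM with 0.1 nM, and 36.7, 26.4 and 29.9 CPM with 10 nM. Each treated library was far above each vehicle library, and the libraries of the doses interleaved, although 10 nM was the higher in all 3 same-numbered pairs at 18 h. Its smallest rise was 3.54, or 11.6-fold.

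Next came a region on chromosome 11 from 114049528 to 114050627, 1099 bp wide. Vehicle libraries at 6 h gave 1.95, 2.35 and 6.49 CPM, against 44.2, 33.5 and 42.2 CPM with 0.1 nM and 27.8, 28.6 and 28.7 CPM with 10 nM. Here the low dose was the higher at 6 h in every library, by 0.48 on the log2 scale, close to the limit of the rule. At 18 h the vehicle libraries gave 2.75, 2.77 and 4.37 CPM, the low dose 43.0, 30.3 and 30.7 CPM and the high dose 31.2, 26.1 and 25 CPM. The doses overlapped at that time, with 0.1 nM the higher in all 3 same-numbered pairs.

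Chromosome 6 held 3 of the 10 regions with the largest smallest rise. The one from 134942824 to 134943554 had almost the same reading at both doses. With 0.1 nM at 18 h its libraries stood at 38.2, 24.9 and 19.5 CPM, and with 10 nM at 37.9, 25.3 and 19.9 CPM, over vehicle libraries at 3.64, 3.96 and 3.07 CPM. At 6 h the low dose gave 27.5, 18.0 and 25.1 CPM, the high dose 20.9, 21.4 and 26.6 CPM and vehicle 2.87, 2.61 and 3.98 CPM. Same-numbered libraries of the doses were nearest each other at 18 h, while replicates of a group spread from 19.5 to 38.2 CPM. All 4 of its rises lay between 2.84 and 2.88.

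Another of these, from 42907032 to 42907743, was higher with 10 nM in each 6 h library, at 36.0, 37.8 and 40.1 CPM, than with 0.1 nM, at 31.8, 28.4 and 27.4 CPM. Its vehicle libraries were at 2.66, 3.19 and 5.11 CPM. At 18 h the doses overlapped, with 41.6, 32.6 and 25.5 CPM at 0.1 nM and 53.7, 35.1 and 31.6 CPM at 10 nM, over 3.38, 3.29 and 6.13 CPM with vehicle. Within same-numbered pairs 10 nM was the higher in all 3. The region thus kept within the limit of 0.5 while the high dose had the higher mean at both times.

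The last of the 3, from 3675524 to 3675953, was nearly closed in vehicle cells. Its 6 h vehicle libraries read 0, 0.145 and 0.487 CPM, with 3.42, 3.72 and 4.57 CPM at the low dose and 4.35, 4.90 and 5.62 CPM at the high dose. At 18 h they read 0.169, 0.257 and 0.885 CPM, with 3.55, 3.05 and 3.42 CPM at the low dose and 5.18, 3.56 and 4.44 CPM at the high dose. Its rises of 4.06 and 4.40 at 6 h and 2.93 and 3.30 at 18 h rest on very small vehicle values, and the vehicle mean was 0.211 CPM at 6 h and 0.437 CPM at 18 h.

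**Figure D2:**
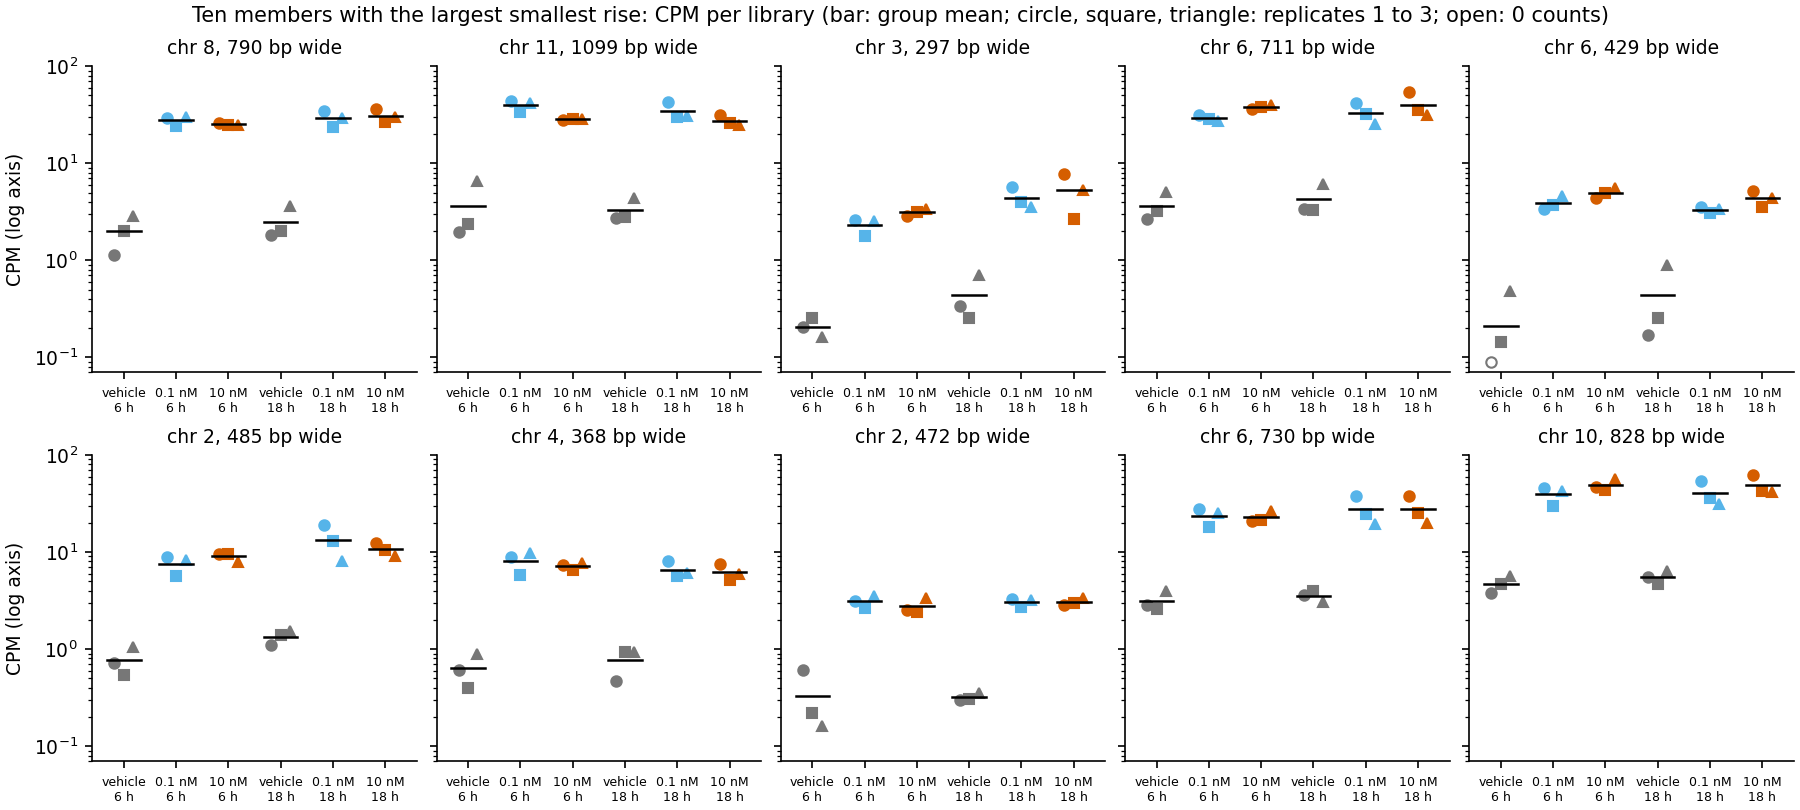
CPM per library on a log axis (y) in the 6 groups (x) for the 10 equal-rise regions with the largest value of their smallest rise, each panel headed by chromosome and width. Points are libraries, bars are group means, and an open symbol at the foot marks a library with no count (replicate 1 of vehicle at 6 h in the 429 bp panel); in every panel the treated points lie above the vehicle points of their time.

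Among the other 5 of the 10, the most open was on chromosome 10 from 79631919 to 79632747. It reached 39.5 ± 8.21 CPM with 0.1 nM and 49.0 ± 6.81 CPM with 10 nM at 6 h (SD, n = 3), from 4.70 ± 0.948 CPM. At 18 h it stood at 40.6 ± 12.3 CPM and 49.1 ± 11.9 CPM over 5.57 ± 0.852 CPM. On chromosome 4 from 73913635 to 73914003 the order of the doses was the other way, with 8.10 ± 2.03 CPM at the low and 7.20 ± 0.643 CPM at the high dose at 6 h, from 0.635 ± 0.248 CPM. The means differed by less than the SD of the low dose there, though by more than that of the high dose.

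Chromosome 2 gave a pair of these regions. From 62651944 to 62652429, the low dose reached 13.4 ± 5.4 CPM and the high dose 10.7 ± 1.70 CPM at 18 h, over 1.34 ± 0.221 CPM. From 183780977 to 183781449, all 4 treated means lay between 2.75 and 3.10 CPM, with vehicle at 0.331 ± 0.247 CPM and 0.319 ± 0.0305 CPM. The weakest of the 10 in vehicle cells, on chromosome 3 (27370888 to 27371185), went from 0.207 ± 0.0456 CPM to 2.31 ± 0.440 CPM and 3.13 ± 0.268 CPM at 6 h. Its 10 nM libraries at 18 h were far apart, at 7.72, 2.67 and 5.36 CPM.

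The most accessible of all equal-rise regions was also the widest, 2727 bp on chromosome 6 from 35693527 to 35696254. In vehicle cells it was already open, with 49.7, 47.9 and 48.0 CPM at 6 h and 46.8, 45.8 and 51.4 CPM at 18 h. The low dose brought it to 155, 125 and 170 CPM at 6 h and the high dose to 123, 124 and 159 CPM. At 18 h the libraries read 170, 124 and 119 CPM with 0.1 nM and 154, 103 and 115 CPM with 10 nM. No treated library came near a vehicle library, the doses overlapped at both times, and the rises were between 1.34 and 1.61. At 18 h the low dose was the higher in all 3 same-numbered pairs.

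Of the other 4 regions with the highest treated levels, the one on chromosome 4 at 6634282 to 6635567 had 37.6 ± 6.60 CPM with vehicle, 100 ± 3.27 CPM with 0.1 nM and 86.6 ± 5.17 CPM with 10 nM at 6 h (SD, n = 3). Its 6 h libraries did not overlap between the doses, at 96.7 to 103 CPM and 81.2 to 91.5 CPM. On chromosome 9 from 125010686 to 125011327 the 6 h means were 15.3 ± 3.64, 66.6 ± 4.27 and 53.2 ± 4.96 CPM, again with the low dose on top. The same order held on chromosome 22 from 31981414 to 31982627, with 66.9 ± 11.5 CPM at the low dose and 48.4 ± 8.51 CPM at the high dose at 6 h, and 64.2 ± 7.78 and 48.4 ± 8.61 CPM at 18 h. These values lie inside the limit of 0.5 and are not called different by the test of the doses given further on.

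The opposite order at 6 h was seen in the region on chromosome 5 from 167780216 to 167781027. It stood at 23.2 ± 2.62 CPM with vehicle, 55 ± 5.44 CPM with 0.1 nM and 77.9 ± 9.92 CPM with 10 nM. By 18 h the order had turned, with 66.5 ± 12.4 CPM at the low and 60.4 ± 13.1 CPM at the high dose. Another of the 5 most open in vehicle cells, on chromosome 1 from 229364882 to 229366039, had the same turn: its means were 44.7 ± 6.99 and 59.2 ± 6.28 CPM at 6 h and 54.8 ± 12.3 and 48.6 ± 6.78 CPM at 18 h. On chromosome 16 from 25130025 to 25131342 the dose difference closed rather than turned, with 50.1 ± 4.52 and 68.1 ± 7.57 CPM at 6 h and 48.9 ± 10.7 and 48.9 ± 10.1 CPM at 18 h. In all 3 regions the 18 h means of the doses differed by less than either SD. Within 18 h pairs the low dose was the higher in all 3 for the chromosome 5 region, and the pairs were mixed in the others.

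At the lower end were regions near the limit of detection. The weakest, 176 bp on chromosome 4 from 161124064 to 161124240, had 0.0924 ± 0.104 CPM with vehicle and 0.282 ± 0.184 and 0.280 ± 0.126 CPM with the doses at 6 h. Its treated libraries overlapped the vehicle libraries in 2 of the 4 comparisons. On chromosome 13 from 43619639 to 43619822, vehicle libraries at 6 h read 0, 0.145 and 0 CPM. Treated libraries there read 0.300 to 0.413 CPM at 6 h, and the size of its rise depended on the prior count: the mean of the 4 rises was 1.84 at a prior count of 2, 2.71 at 0.5 and 1.23 at 5. The third, on chromosome 4 (47862556 to 47862769), had 0.195 ± 0.0288 CPM with vehicle and 0.752 ± 0.149 and 0.591 ± 0.151 CPM with the doses at 6 h. None of the 3 was called in all 4 comparisons.

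Between these ends the size of the rise changed little with how open a region was at the start. The 60 equal-rise regions under 0.5 CPM in vehicle cells had a median rise of 1.65, and the 52 regions at 5 CPM or more had 1.5. These medians are a description, since the rule kept only rises of at least 1. The prior count of 2 also lowers rises at low levels. The calls, given as a description, went with level: 10 of the 60 weakest were called in all 4 comparisons, against 50 of the 52 most open. Width went with level, from a median of 209 bp in the weakest to 935 bp in the most open.

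The limits of the rule lie within a continuous range of values. Just inside the limit on the rise, with a smallest rise of 1.0, were 2 regions of chromosome 16 (48198874 to 48200168 and 57316535 to 57316718) and 1 of chromosome 3 (32708350 to 32709194). Just outside, also at 1.0 after rounding, were regions of chromosome 15 (33576676 to 33576853), chromosome 13 (78098074 to 78098224) and chromosome 20 (61195960 to 61196246). Inside the limit on the doses, the chromosome 5 region described above, another of that chromosome (141076037 to 141076365) and a region of chromosome 13 (40487907 to 40488646) had a largest dose difference of 0.50. Just outside it, at 0.50 as well, were regions of chromosome 10 (21520533 to 21520707), chromosome 1 (118132907 to 118133419) and chromosome X (76760686 to 76760955). In all, 893 regions passed the limits on the rise and missed only the limit on the doses.

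The nearness of the doses is a statement about means of 3 libraries, and its precision was limited. By the edgeR fit, the median difference of 10 nM minus 0.1 nM over the equal-rise regions was 0.10 at 6 h and 0.00 at 18 h, with a median SE of 0.29 and 0.30. The 95% interval of the difference reached 0.61 to either side at the median at 6 h and 0.62 at 18 h. It lay wholly within a 2-fold difference either way in 211 of the 321 regions at 6 h and 214 at 18 h, and at both times in 182. Within the limit of 0.5 itself it lay in 10 and 12. The rule kept small dose differences, which centres these intervals near 0, so they describe the precision and show no equality. Same-numbered libraries of the 18 h doses deviated together. With the replicate number as a block in those groups, chosen after seeing the data, the median reach at 18 h was 0.57 and 225 intervals lay within 2-fold. The edgeR test of the doses called 0 of them at either time (20.4% of all regions at 6 h and 10.9% at 18 h), with an unadjusted p under 0.05 in 3 and 2. With the block in the 18 h dose groups it called 0 at 18 h, with an unadjusted p under 0.05 in 13. With the block over all libraries it called 3 at 6 h and 1 at 18 h, with an unadjusted p under 0.05 in 17 and 15. Within the 18 h pairs, 58 regions were higher with 10 nM in all 3 pairs, 50 were higher with 0.1 nM in all 3, and 213 were mixed. The rule used this contrast, so none of these counts is a result.

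The small differences that remained leaned toward the high dose at 6 h and were balanced at 18 h. By the means of log2 CPM, 210 of the 321 were higher with 10 nM at 6 h and 163 at 18 h. The sign was toward 10 nM at both times in 127 and toward 0.1 nM at both times in 75, and it turned in 119. The median difference was 0.14 at 6 h and 0.01 at 18 h, beside 0.00 and -0.04 over all regions. The rule kept only differences under 0.5 either way, so this lean is a description and nothing is read from it.

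**Figure D3:**
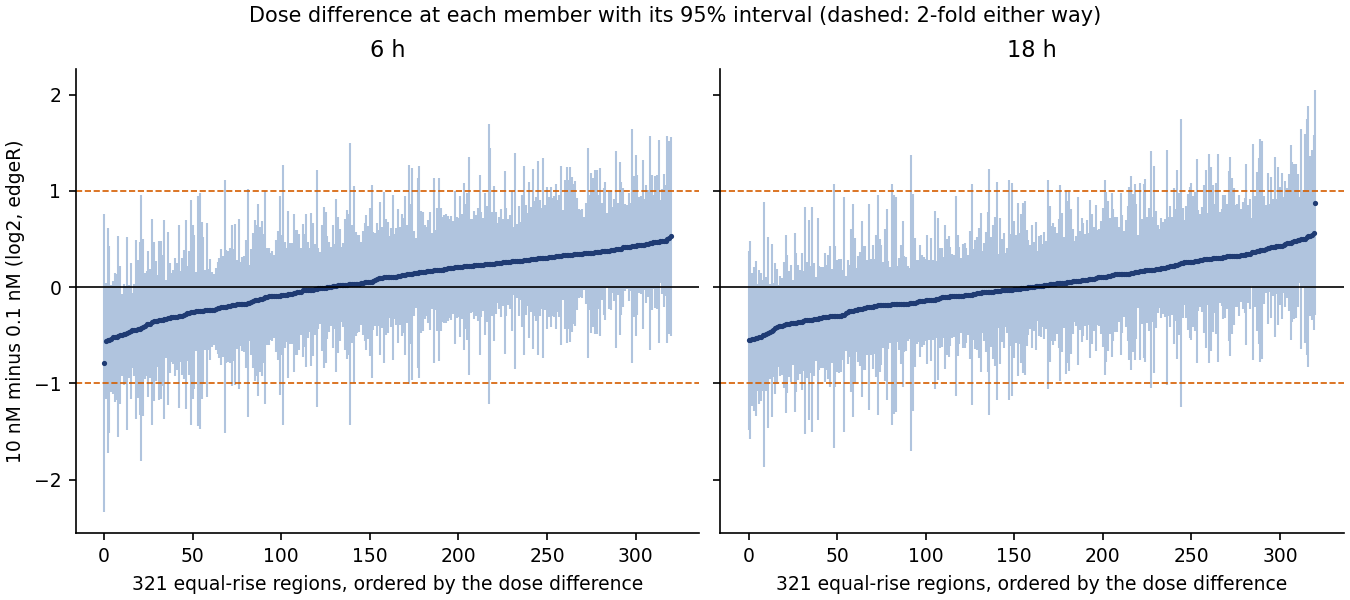
Difference of 10 nM minus 0.1 nM on the log2 scale from the edgeR fit (y axis) for each of the 321 equal-rise regions, in increasing order (x axis), at 6 h and 18 h, with 95% intervals as vertical lines and a 2-fold difference either way dashed. Points lie between -0.79 and 0.53 at 6 h and between -0.55 and 0.88 at 18 h, and most intervals, though not all, end inside the dashed lines.

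The 6 h and 18 h cells share no library, so a choice made at 1 time can be read at the other. Same-numbered vehicle libraries of the times deviated together, however (r = 0.32, 0.12 and 0.44). So did those of 0.1 nM in replicates 1 and 2 (0.58 and 0.22), though not in replicate 3 (-0.08). The readings in both directions may therefore not be fully independent of the choice, and the part of this was not tested. When the rule was applied to the 6 h libraries alone, it found 1172 regions. At 18 h their median rise was 0.91 with 0.1 nM and 1.03 with 10 nM, and 87.4% of them were above vehicle with both doses, where 35.6% of all regions were. Both rises reached 1 in 432 of them, or 36.9%, beside 2.44% of all regions. Of those 432, 321 also had the doses within 0.5, which is 74.3%. Of all regions that rose by at least 1 with both doses at 18 h, 45.2% did. Over the whole list, with no condition on the 18 h rise, the doses were within 0.5 in 66.6%, beside 63.5% of all regions, so that share was near the background.

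By library, these 1172 regions had median 18 h ratios to vehicle of 1.12, 0.87 and 0.96 at the low dose and 1.23, 1.01 and 1.06 at the high dose, over vehicle libraries from -0.10 to 0.20. All treated libraries lay above all vehicle libraries. The ranges of the doses overlapped, although 10 nM was the higher in every same-numbered pair. Regions that at 6 h had risen with 10 nM and stood at least 1 above the low dose behaved otherwise at 18 h. In those 21392 dose-graded regions the low-dose libraries had ratios of -0.16, 0.28 and 0.70 and the high-dose libraries 1.56, 1.23 and 1.41, so here the doses did not overlap. Their median dose difference at 18 h was 1.08, against 0.06 in the 1172 regions chosen for equal rise. The contrast between the lists was not tested.

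**Figure D4:**
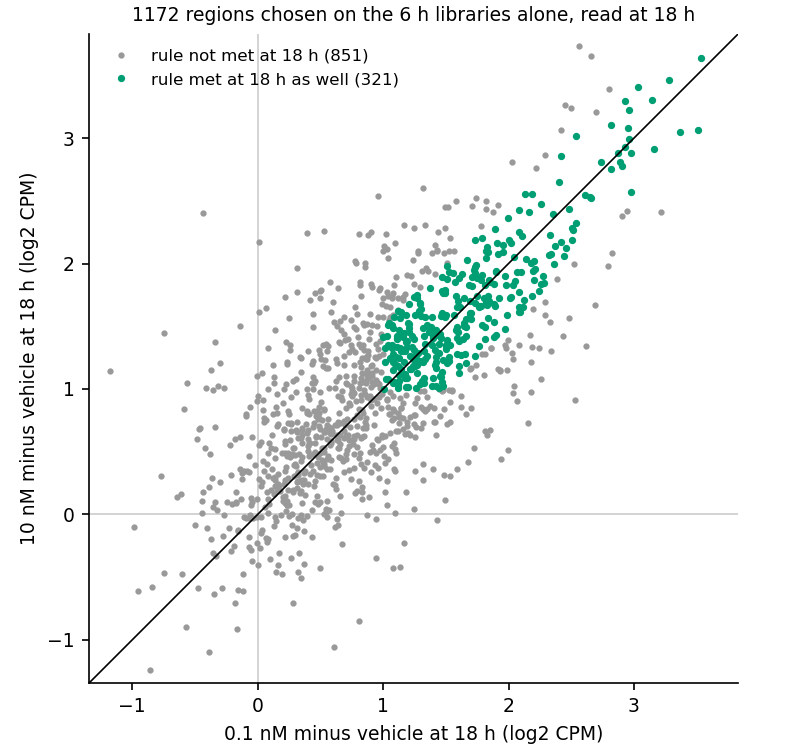
Rise over vehicle at 18 h with 0.1 nM (x axis) and 10 nM (y axis), in log2 CPM, for the 1172 regions that met the rule in the 6 h libraries alone; green points met the rule at 18 h too, and the line marks equal rises. The points scatter widely on both sides of that line, with 321 green and 87.4% of all points above 0 on both axes.

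How well the 6 h choice held at 18 h went with how large the rise had been. Of 849 regions whose smaller 6 h rise was between 1 and 1.5, 24.1% rose by at least 1 with both doses at 18 h. That share was 60.0% of the 200 between 1.5 and 2, 84.6% of the 104 between 2 and 3, and all of the 19 at 3 or more. The share also went with the level in vehicle cells at 6 h: 26.7% of the 416 regions under 0.5 CPM met it, and 56% of the 91 at 5 CPM or more. That level entered the 6 h choice, and level and size of the rise were not separated. The weaker and less open regions of the 6 h choice were thus seen again least often.

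Read in the other direction, the equality was less complete. The 18 h libraries alone gave 1463 regions, and at 6 h these had a median rise of 0.82 with 0.1 nM and 1.39 with 10 nM. Both rises reached 1 in 554 of them, or 37.9%, beside 2.42% of all regions. The doses were within 0.5 in 57.9% of the 554, beside 36.6% of all regions that rose by at least 1 with both doses at 6 h. Over all 1463 they were within 0.5 in 649, or 44.4%, which is below the 57.7% of all regions. By library the 6 h ratios were 0.94, 0.84 and 0.81 at the low dose and 1.40, 1.41 and 1.49 at the high dose, so the doses did not overlap. The 10 nM level was at least 1 above the 0.1 nM level in 24.7% of the 1463 at 6 h, whereas it was in 5.63% of the 1172 chosen at 6 h when these were read at 18 h. Each of the 2 shares is taken at another time, and over all regions they were 18.5% at 6 h and 10.8% at 18 h.

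Change between the times within 1 treatment is a contrast that the rule did not use directly. The rule still shaped it, since each dose had to be at least 1 above vehicle at both times. In vehicle cells, edgeR called 0 of the 321 regions between 18 h and 6 h, and DESeq2's Wald test called 0; 0% of all regions were called. An unadjusted p under 0.05 was found in 20 of the 321, or 6.23%, beside 2.87% of all regions, 18 of them higher at 18 h. With the replicate number as a block, since same-numbered vehicle libraries deviated together, edgeR called 0 and 23 had an unadjusted p under 0.05. With 0.1 nM, edgeR called 0 (0.00151% of all regions) and DESeq2 called 1, with an unadjusted p under 0.05 in 37 by edgeR, or 11.5%, beside 9.80% of all regions.

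With 10 nM, 2 equal-rise regions were called higher at 18 h than at 6 h and 0 lower, beside 1.25% of all regions, of which 148 were higher and 1501 lower. Regions that lost the 10 nM rise by 18 h could not meet the rule, so nothing is read from the direction. The count of 2 became 0 to 6 when each library was left out in turn, the latter without replicate 1 of 10 nM at 18 h. One was on chromosome 3 from 183088568 to 183089288. Its 10 nM libraries stood at 4.12, 6.89 and 6.26 CPM at 6 h and at 14.2, 15.4 and 14.9 CPM at 18 h, a log2 change of 1.39 (SE 0.27, edgeR adjusted p = 0.0111). With 0.1 nM it went from 9.11, 7.86 and 4.02 CPM to 15.1, 15.5 and 8.64 CPM, and the vehicle libraries from 2.25, 2.79 and 3.25 CPM to 3.09, 3.90 and 3.60 CPM. The 10 nM libraries of the times did not overlap, while those of the low dose did. The adjusted p was 0.0914, 0.0613 and 0.0589 without replicate 1 or 3 of 10 nM at 6 h or replicate 2 of 10 nM at 18 h.

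The other was on chromosome 17 from 7970197 to 7971021, with 2.51, 3.08 and 2.98 CPM at 6 h and 6.52, 10.0 and 6.66 CPM at 18 h, a change of 1.46 (SE 0.36, edgeR adjusted p = 0.0486). Its vehicle mean also moved, from 1.42 ± 0.974 CPM to 2.32 ± 0.526 CPM. That call rested on many libraries: it missed the threshold without any 1 of 13 of the 18, and without the count filter, with an adjusted p of up to 0.245. Among them were all 10 nM libraries other than replicate 1 at 18 h.

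The change of the response between the times was also fitted, as an interaction. For the 0.1 nM response edgeR called 0 of the 321 and DESeq2 0, where 0% of all regions were called. An unadjusted p under 0.05 was found in 8 by edgeR, beside 2.53% of all regions. For the 10 nM response the counts were 0 and 0 called, beside 0.00151% of all regions, and 14 at an unadjusted p under 0.05, beside 5.57%. The rule used both rises that enter an interaction, so these counts are a description and nothing is read from them. The mean rise of the doses was larger at 6 h in 190 regions and larger at 18 h in 131, with a median change of -0.08. It changed by over 1 in 13. Across the 321 regions, which share libraries and the same minimum rise, the 6 h and 18 h rises had a Pearson r of 0.69 and a Spearman rho of 0.59.

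The equal-rise regions were of ordinary width. Their median was 423 bp, within a range of 140 to 2727 bp, beside 386 bp over all regions. Of them 9.03% were over 1000 bp wide, and of all regions 9.26%. The 10771 dose-graded regions, which rose at least 2-fold with 10 nM at both times and stood at least 1 above the low dose at both, had a median width of 346 bp, and 1.29% were over 1000 bp. Their median vehicle level was 0.693 CPM, lower than the 1.41 CPM of the equal-rise regions and the 2.10 CPM of all regions. Width and level go together in these data, and the difference between the lists was not tested.

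Besides the chromosome 6 region already described, the widest were 1633 bp of chromosome 17 (7959603 to 7961236) and 1551 bp of chromosome 11 (77810778 to 77812329). The former had 10.8 ± 2.58 CPM with vehicle, 26.3 ± 5.11 CPM with 0.1 nM and 21.6 ± 2.23 CPM with 10 nM at 6 h. The latter rose more, from 3.51 ± 0.377 CPM to 15.1 ± 3.64 and 17.0 ± 3.48 CPM. At 18 h it stood at 16.0 ± 2.55 and 14.0 ± 2.85 CPM over 3.76 ± 0.452 CPM, with the order of the doses turned. The 18 h difference was smaller than either SD, and 0.1 nM was the higher in all 3 same-numbered pairs.

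Most of the regions stood alone. When equal-rise regions with gaps of up to 100 kb were joined, 272 of the 321, or 84.7%, had no partner, and the other 49 fell into 24 groups, of which 1 had 3 regions. The median distance to the next equal-rise region on the chromosome was 1756 kb. The group of 3 was on chromosome 12 from 76567691 to 76661154, with 5 other regions of the table in between. Its strongest, from 76660501 to 76661154, went from 7.30 ± 0.983 CPM to 20.7 ± 2.26 and 20.4 ± 1.68 CPM at 6 h. The one from 76653559 to 76653770 rose more steeply, from 0.416 ± 0.311 CPM to 2.54 ± 0.315 and 2.68 ± 0.364 CPM. The weakest, from 76567691 to 76567907, reached 0.614 ± 0.0502 and 0.708 ± 0.256 CPM.

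Groups of 2 were taken in order of the shortest span. On chromosome 20, a pair from 49038897 to 49039361 and from 49039645 to 49040142 lay 284 bp apart, the shortest distance found. Their 10 nM means at 18 h were 4.90 ± 0.362 and 8.37 ± 0.771 CPM, over vehicle means of 1.77 ± 0.256 and 3.20 ± 0.366 CPM. On chromosome 21 a pair from 38437220 to 38437643 and from 38438911 to 38439125 had larger rises at 6 h than at 18 h. The first of these rose by 2.62 and 3.02 at 6 h and by 2.19 and 2.56 at 18 h, and the second by 3.32 and 3.54, then by 1.90 and 1.93. Regions so close may share fragments, so they are not independent.

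The pair on chromosome 1 was weaker. From 37563896 to 37564264 the 6 h means were 1.33 ± 0.456, 3.07 ± 0.594 and 3.58 ± 0.398 CPM, and from 37566960 to 37567123 they were 0.464 ± 0.399, 0.936 ± 0.219 and 1.05 ± 0.472 CPM. The latter was free of overlap in only 1 of its 4 comparisons with vehicle. On chromosome 6 the nearly closed region from 3675524 described above had a more open partner from 3670001 to 3670565. This partner went from 6.40 ± 0.859 CPM to 36.4 ± 3.54 CPM with 0.1 nM and 31.5 ± 0.770 CPM with 10 nM at 6 h, and from 5.65 ± 0.978 CPM to 35.2 ± 7.84 and 33.9 ± 8.86 CPM at 18 h.

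Chromosomes Y and M, with 185 and 7 regions, held no equal-rise region. On the other chromosomes the share of regions with an equal rise ran from 0.0517% on chromosome 19 (2 of 3868) to 0.755% on chromosome 13 (18 of 2383). Chromosome 1 held the most, 46 of 11326 or 0.406%. Chromosomes 7, 14 and 8 were low, with 0.100%, 0.111% and 0.116%. For dose-graded regions the share was 4.14% on chromosome 19 and 11% on chromosome 13.

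Regions that were not chosen but lay near an equal-rise region had medians above vehicle with both doses, although most were not called. The 513 such regions within 10 kb had median differences from vehicle of 0.23 with 0.1 nM and 0.28 with 10 nM at 6 h, and 0.27 and 0.25 at 18 h. Among the 124366 regions over 200 kb away the medians were -0.01, 0.02, -0.02 and -0.04. edgeR called 26 of the 513 higher with 0.1 nM at 6 h, or 5.07%, and 40 at 18 h, or 7.80%, beside 0.949% and 1.74% of all regions. With 10 nM, 28.7% and 24.8% were called higher, beside 16.7% and 12.8%. The medians fell with distance, to 0.09, 0.17, 0.08 and 0.07 between 10 and 50 kb.

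**Figure D5:**
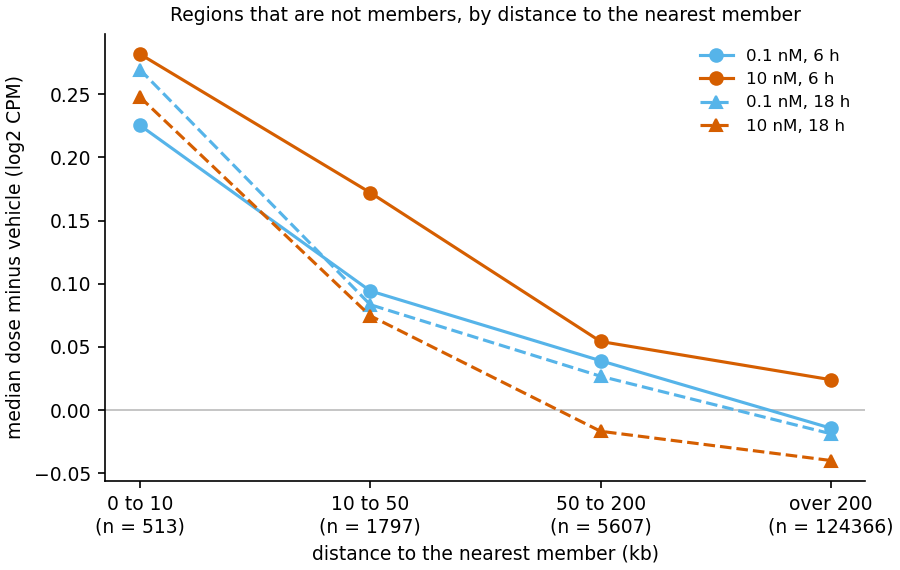
Median difference from vehicle in log2 CPM (y axis) of regions outside the 321, by distance to the nearest equal-rise region (x axis, with the number of regions), for each dose and time. All 4 medians are highest within 10 kb, between 0.23 and 0.28, and lie between -0.04 and 0.02 beyond 200 kb.

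Within 10 kb of dose-graded regions, 11559 other regions had medians of 0.00 with 0.1 nM and 0.10 with 10 nM at 6 h, and 0.00 and 0.02 at 18 h. edgeR called 1.14% of them higher with 0.1 nM at 6 h and 16.9% with 10 nM. These neighbours leave out every dose-graded region, whereas the neighbours of equal-rise regions include them. The 10 nM values of the neighbourhoods, and of all regions, are therefore not like for like. Over 200 kb from dose-graded regions, 7.41% were called higher with 10 nM at 6 h. The share over 200 kb from equal-rise regions was 16.3%. Neighbours of a region share its libraries and can overlap the same fragments, and the difference between these neighbourhoods was not tested. The equal-rise regions also lay a little closer to their nearest region of any kind, at a median of 4619 bp beside 5468 bp over all regions, and 19.6% of them beside 28.4% were over 10 kb from it.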

How the data were processed

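Omni-ATAC-seq was measured in 18 libraries of T47D cells, 3 in each of 6 groups. The authors deposited 1 table of raw read counts per region, without normalization. Per the submitters' processing notes BWA, MACS2 and build hg19 were used; versions, read filters, any Tn5 shift and the merging of regions were not given in the sources used here. Columns were matched to samples by title.

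From the counts, CPM and log2 CPM (prior count 2, TMM) were computed with edgeR 4.0.16 in R 4.3.3, and the rule was applied to the whole table. The quasi-likelihood test took all 18 libraries in a single model of 6 group means, leaving 12 residual degrees of freedom, after filterByExpr (minimum count 10, minimum total 15), which left 132304 regions and removed 300. Calls are at a Benjamini-Hochberg adjusted p under 0.05. The SE is the absolute log2 fold change divided by the square root of F. DESeq2 1.42.0 was an alternative. Steps were tested on simulated counts.

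The region set, lists and rules for named regions were chosen with earlier results of these data known. Named regions were the 10 with the largest smallest rise (at least 2 CPM in each treated group, no overlap with vehicle), the 5 highest treated and vehicle levels, the 3 weakest, the 3 widest, the 5 largest groups, those called between times and those nearest each limit. Among groups of equal size the shortest span came first, a choice made after the values were seen.

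Replicates differed by more than sampling noise (chi-square per degree of freedom 3.34 to 28.2). Same-numbered vehicle libraries of the times deviated together (r = 0.32, 0.12 and 0.44), so they may be paired; this comes from the data, not the labels. With 0.1 nM the same-numbered libraries did so in replicates 1 and 2 but not in replicate 3 (0.58, 0.22 and -0.08). With 10 nM they did not (-0.23, 0.03 and 0.01). The doses deviated together at 18 h (0.60, 0.19 and 0.45) but not at 6 h (-0.17, -0.01 and 0.24). At 18 h vehicle also deviated with 0.1 nM (0.45, 0.10 and 0.45) and 10 nM (0.36, 0.01 and 0.35), least in replicate 2. At 6 h it did so with 0.1 nM in replicate 1 only (0.46, 0.00 and -0.10), and not with 10 nM (-0.14, 0.12 and 0.01). The main fit took no account of this. No interval covers more than the spread between libraries. Sequence motifs were not analysed here, since no genome of the files' build was at hand.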

Additional observations from a re-analysis of the deposited data

How the results depend on the processing

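The number of equal-rise regions was 321, and it followed the limits of the rule: 107 with a rise of at least 1.5, 99 with doses within 0.25 and 675 with doses within 1. It stayed within 1.5 times under other scalings and prior counts (262 to 343) and ranged from 269 to 346 when each library was left out in turn. Regions chosen at 6 h that rose with both doses at 18 h numbered 432 (378 to 483 with a library left out, 211 with doses within 0.25), and those chosen at 18 h and read at 6 h 554 (475 to 603, and 300). Equal-rise regions called in all 4 comparisons with vehicle numbered 200 (129 to 208 with a library left out; 229 with the replicate block). The 2 regions called between the times with 10 nM became 0 to 6 with a library left out, 10 with the replicate block, 8 without the 2 libraries that lay apart (chosen after seeing the data), 4 with DESeq2 and 1 without the count filter. Replicate numbers did not pair the 10 nM libraries. With 0.1 nM the count was 0, and 1 with DESeq2; it was 0 with each library left out. The replicate block over all libraries also called 3 equal-rise regions between the doses at 6 h and 1 at 18 h, beside 0 and 0; it was 0 at 18 h with the block in the 18 h dose groups alone. With the block over all libraries, an unadjusted p under 0.05 between the doses was found in 17 at 6 h and 15 at 18 h, beside 3 and 2. The block moved the number of equal-rise regions called in no other comparison by over 1.5 times. For the 45 named regions, 985 of 990 recomputed mean rises moved by less than the replicate SD and 0 reversed. The other 5 came from the prior count. Leaving out 1 library can hardly move a mean of 4 rises by that SD. The named regions also had rises near or above the limit of 1 by choice. These counts are therefore a description and support nothing further. Groups within 50 or 200 kb numbered 18 and 30, beside 24. Calls went with level: 10 of 60 regions under 0.5 CPM were called in all 4 comparisons. The part of depth was not tested.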
